A study of Homo sapiens with 22 samples.

Results

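The experiment compared differentiated LUHMES cells that overexpressed alpha-synuclein and received the neurotoxin 6-hydroxydopamine (6-OHDA) together with quercetin (3 samples) with the same cells given 6-OHDA alone (4 samples). These 7 samples were taken by their labels from the 22 RNA-seq samples of the study, and the sequencing identifiers put all 7 on lane 2. LUHMES is a human line of embryonic mesencephalic cells that can be turned into post-mitotic neurons with dopaminergic features. The study used wild-type and alpha-synuclein-overexpressing LUHMES cells, with and without 6-OHDA, as culture models of Parkinson disease, and added quercetin or rutin to test for a neuroprotective effect. Its design text names CEBPB beside quercetin and a gene written AKR13C beside rutin. All groups described here carried the alpha-synuclein overexpression: untreated cells (4 samples, on lane 1), 6-OHDA alone (4 samples), 6-OHDA with quercetin (3 samples) and 6-OHDA with rutin (3 samples). The sources used here do not give doses, exposure times, the promoter behind the transgene or the number of cell clones. The labels do not say whether replicates were separate cultures. The p-values therefore reflect only how far libraries of the same group spread, and that spread may be technical. In the gene tests, unless stated otherwise, it was estimated from all 22 libraries in 6 groups, including wild-type cells and lane 1.

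6-OHDA is a dopamine analogue that catecholaminergic cells take up and that oxidises to hydrogen peroxide and a reactive quinone. Cells under such stress induce antioxidant enzymes through NRF2 and, when proteins misfold in the endoplasmic reticulum (ER), chaperones and disulfide isomerases through the unfolded protein response (UPR), which works through the factors ATF6, XBP1 and ATF4. Quercetin is a plant flavonol known as an antioxidant, an inhibitor of several kinases and a ligand of the aryl hydrocarbon receptor, and rutin is its glycoside, in which a rutinose sugar is attached to the flavonol.

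The 7 libraries held 2520764 to 18607226 estimated counts each, and values below are in CPM, counts relative to the library total after scaling by the trimmed mean of M-values. Pan-neuronal genes were present in all 7 libraries, with MAP2 at 560 to 752 CPM and TUBB3 at 154 to 208 CPM. Of the dopaminergic markers, TH stood at 46.8 to 83.9 CPM, while DDC stayed between 0 and 1.24 CPM. Replicate 4 of the 6-OHDA group, the most deeply sequenced of the 7, stood apart from the other 3 libraries of its group: it held 14.3 CPM of HMOX1 against 50.97 to 62.1. Whether that library carries the right label could not be settled from these data. Calls are therefore set beside the fit that leaves it out. Quercetin replicate 3 had 3.18% of its counts in pseudogenes against 1.67% to 2.00% in the other 6. Counts of ribosomal protein genes made up 2.53% to 3.06% of the quercetin libraries and 2.13% to 2.62% of the 6-OHDA libraries (exact two-sided permutation p = 0.0857, adjusted p = 0.206 over 6 quality measures, where the smallest p the design allows is 0.0286). The part of these library differences in the results was not tested.

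Quercetin was accompanied by more falls than rises. Of 16601 genes tested, 420 (2.53%) differed from 6-OHDA alone at an adjusted p under 0.05, with 93 higher (0.560%) and 327 lower (1.97%). Most called differences were under 2-fold, which 24 of the higher genes (0.145% of those tested) and 27 of the lower genes (0.163%) reached. The median log2 fold change of all tested genes was -0.02, a value that the scaling sets near 0. The number of calls depended on single libraries. Without 6-OHDA replicate 4, 84 genes were called (0.511% of 16431 tested), 21 higher (0.128%) and 63 lower (0.383%), and 77 of them were among the 420 with the same direction (0.464% of 16601). Without quercetin replicate 1, 2 or 3 there were 98, 26 and 73 calls, and without 6-OHDA replicate 1 or 3 there were 896 and 727. When the spread was estimated from the 7 libraries alone, 2 genes were called, LRAT and LCNL1, and 2062 had an unadjusted p under 0.05. The plot of calls by setting shows that falls outnumbered rises in most fits.

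**Figure D1:**
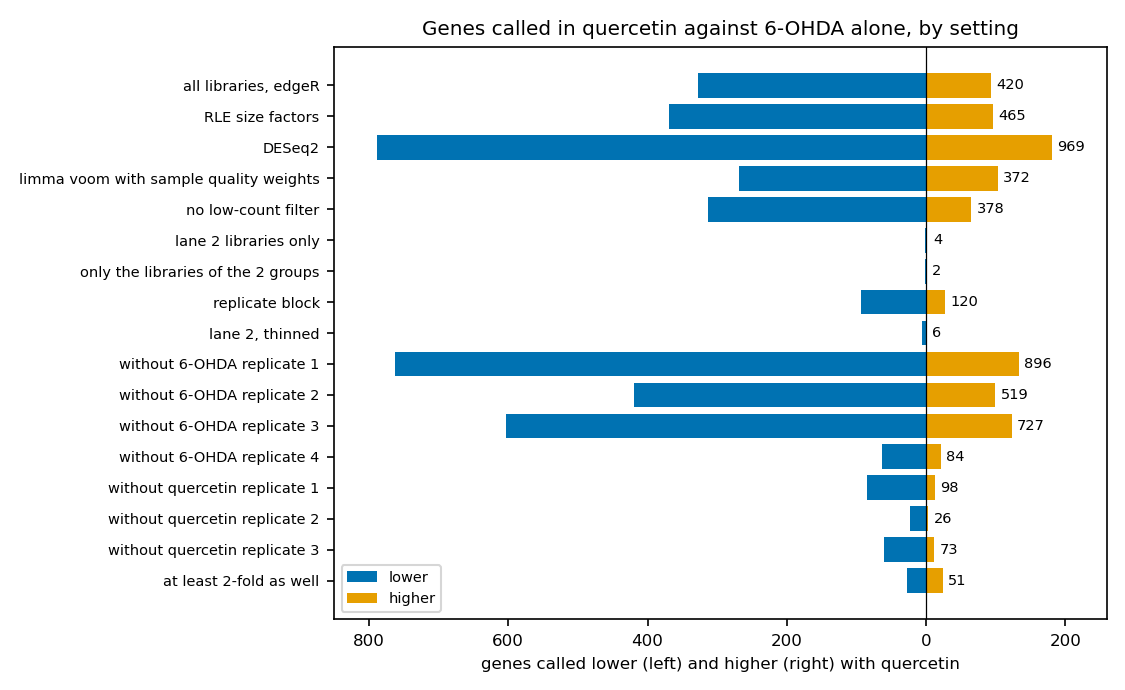
Number of genes called lower (bars to the left) and higher (bars to the right) with quercetin against 6-OHDA alone at an adjusted p under 0.05, for each way of fitting the data, with the total printed at the right. The count was 420 with all libraries, between 26 and 896 when 1 library was left out, and 2 to 6 when the spread came from the 2 groups or lane 2 only.

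The 2 groups of libraries did not overlap for 92 of the genes called higher and 317 of those called lower (0.554% and 1.91% of genes tested), while over all genes 5.36% had every quercetin library above and 8.13% every quercetin library below the 6-OHDA libraries. In all, 24 genes (5.71% of the 420 called) passed in the fit with all libraries and in each of the 7 fits that left out 1 library; 21 were lower and 3 were higher. The 3 higher genes were NGFR, CFAP43 and PTDSS1, which makes phosphatidylserine. Among the 21 lower genes were SNCG, the gamma-synuclein gene, ATP2B4, a plasma membrane calcium pump, DNM1, the neuronal dynamin of synaptic vesicle endocytosis, and PTGDS, the brain-type prostaglandin D synthase. PTDSS1, ATP2B4, ATP2B2, BDKRB2, CCER2, THBS3, TNFRSF19 and SYVN1 were chosen for naming after their values were seen.

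Genes of protein folding in the ER were the list with the most calls. The list of ER chaperones and UPR genes had 19 tested members, of which 9 fell (the share of all genes called lower was 1.97%) and 0 rose, with a median log2 fold change of -0.57 against -0.02 over all tested genes. In 10 of the 19, every quercetin library lay below every 6-OHDA library, a pattern seen in 8.13% of all genes. In 1, ATF6, every quercetin library lay above, a pattern seen in 5.36% of all genes. ATF6 was low, at means of 1.40 against 0.44 CPM, and was not called (1.34, adjusted p = 0.311). HSPA5 was also on the list but had no row in the deposited counts. The summed level of the list was 3506, 3718 and 3703 CPM with quercetin and 4333, 4683, 5069 and 7795 CPM with 6-OHDA alone, the highest value being that of replicate 4. The quercetin libraries were thus all below the 6-OHDA libraries, which leaving out replicate 4 cannot alter. The untreated cells, on the other lane, were at 2757 to 2953 CPM. Without replicate 4, 3 members were called lower (HERPUD1, PDIA3 and DNAJB11) and the median was -0.40. Without quercetin replicate 2 or 3 the count was 0, without quercetin replicate 1 it was 1, and it was 0 when the spread came from the 7 libraries alone.

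The ER stress response element, a pair of boxes written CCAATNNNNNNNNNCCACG that is known to bind NF-Y and ATF6, was searched on both strands from 250 bases before to 50 bases after the RefSeq start of each gene. This element was added after the data were seen and was not among the motifs planned before. It occurred in 22 of 27305 promoters of the RefSeq table (0.0806%) and in 13 of 11762 tested genes with an entry (0.111%). Among the 18 list members that have an entry it occurred in 5 (27.8%): HSP90B1, CALR, XBP1, CANX and CRELD2. The element and the list both belong to the ER stress response, so this share says nothing about quercetin. HSP90B1 and CALR were called lower and the other 3 were not, so the element was found in 2 of the 8 called members with an entry (25%). The windows below (RefSeq, GRCh38.p14, gene strand, 5′ to 3′) show the matches of the called list members and of XBP1, the UPR factor, with the boxes in capitals. Called genes outside the list that also held a match are not shown. They lie upstream of the RefSeq start, and HSP90B1, on the plus strand at chr12:103930201-103930354, holds 2 matches, at -194 to -176 and at -89 to -71. CALR, on the plus strand at chr19:12938369-12938417, has its match at -225 to -207, and XBP1, on the minus strand at chr22:28800588-28800636, has one at -52 to -34. The GENCODE 29 record of HSP90B1 given with its values below begins farther upstream than the RefSeq start, so both of its matches lie inside that record. A match is a description of the letters, not of binding.
HSP90B1: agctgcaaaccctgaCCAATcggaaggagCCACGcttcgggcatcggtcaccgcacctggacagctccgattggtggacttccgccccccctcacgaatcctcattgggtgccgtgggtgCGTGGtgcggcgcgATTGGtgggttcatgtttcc
CALR: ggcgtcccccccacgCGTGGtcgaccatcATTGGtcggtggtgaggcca
XBP1: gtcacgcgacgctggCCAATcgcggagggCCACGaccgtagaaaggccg

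HERPUD1 encodes a membrane protein of ER-associated degradation and lies on chr16:56932048-56944863 (GENCODE 29, GRCh38). It stood at 323, 307 and 288 CPM with quercetin and at 393, 444, 375 and 597 CPM with 6-OHDA alone. All quercetin libraries were below all 6-OHDA libraries. The log2 fold change was -0.57 ± 0.12 (SE, adjusted p = 0.0158), and -0.40 (adjusted p = 0.0315) without replicate 4. In the untreated cells HERPUD1 was at 108 to 123.4 CPM.

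HSP90B1, which encodes the ER-resident HSP90 chaperone GRP94 and lies on chr12:103930107-103953645, showed the largest fall of the list. Its levels were 69.6, 76.5 and 95.8 CPM with quercetin and 140, 172, 151 and 229 CPM with 6-OHDA alone, and the groups did not overlap. The log2 fold change was -1.10 ± 0.25 (SE, adjusted p = 0.0260); without replicate 4 it was -0.93 and no longer passed (adjusted p = 0.107). The untreated cells held 41.7 to 64.7 CPM.

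The protein disulfide isomerases, which form and shuffle disulfide bonds in new secretory proteins, moved in the same direction. PDIA6 was at 269, 319 and 349 CPM with quercetin and 403, 457, 520 and 924 CPM with 6-OHDA alone. PDIA3 was at 488, 513 and 534 CPM with quercetin and 648, 671, 716 and 1207 CPM with 6-OHDA alone. Both groups of values were separate, and replicate 4 was the highest library for each gene. The log2 fold change of PDIA6 was -0.89 (adjusted p = 0.0244; -0.55 and 0.0594 without replicate 4), and that of PDIA3 was -0.67 (adjusted p = 0.0246; -0.41 and 0.0339 without replicate 4). PDIA4 fell by 0.66 on the log2 scale (adjusted p = 0.0438), and the call was lost without replicate 4 (-0.54, adjusted p = 0.194).

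DNAJB11, an HSP40 co-chaperone of the ER, was at 168, 178 and 184 CPM with quercetin and 208, 248, 278 and 482 CPM with 6-OHDA alone (log2 fold change -0.79, adjusted p = 0.0255; -0.47 and 0.0486 without replicate 4). MANF, a secreted neurotrophic factor that resides in the ER, HYOU1, an ER HSP70-type chaperone, and CALR, the calcium-binding chaperone calreticulin, fell by 0.80, 0.60 and 0.59 on the log2 scale (adjusted p = 0.0261, 0.0361 and 0.0451). None of these 3 passed without replicate 4. XBP1 stood at 384, 379 and 359 CPM with quercetin and at 414, 387, 395 and 496 CPM with 6-OHDA alone. Every quercetin library of XBP1 lay below every 6-OHDA library, but the gene was not called (-0.18, adjusted p = 0.244). SYVN1, the ubiquitin ligase of ER-associated degradation and no member of the list, was at 223, 241 and 209 CPM with quercetin and 278, 332, 342 and 414 CPM with 6-OHDA alone. It fell by 0.61 on the log2 scale (adjusted p = 0.00874) and was one of the 24 genes called whichever library was left out. HSP90B1, MANF, HYOU1, PDIA4, CALR, XBP1, CANX, CRELD2 and ATF6 were also chosen for naming after their values were seen.

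**Figure D2:**
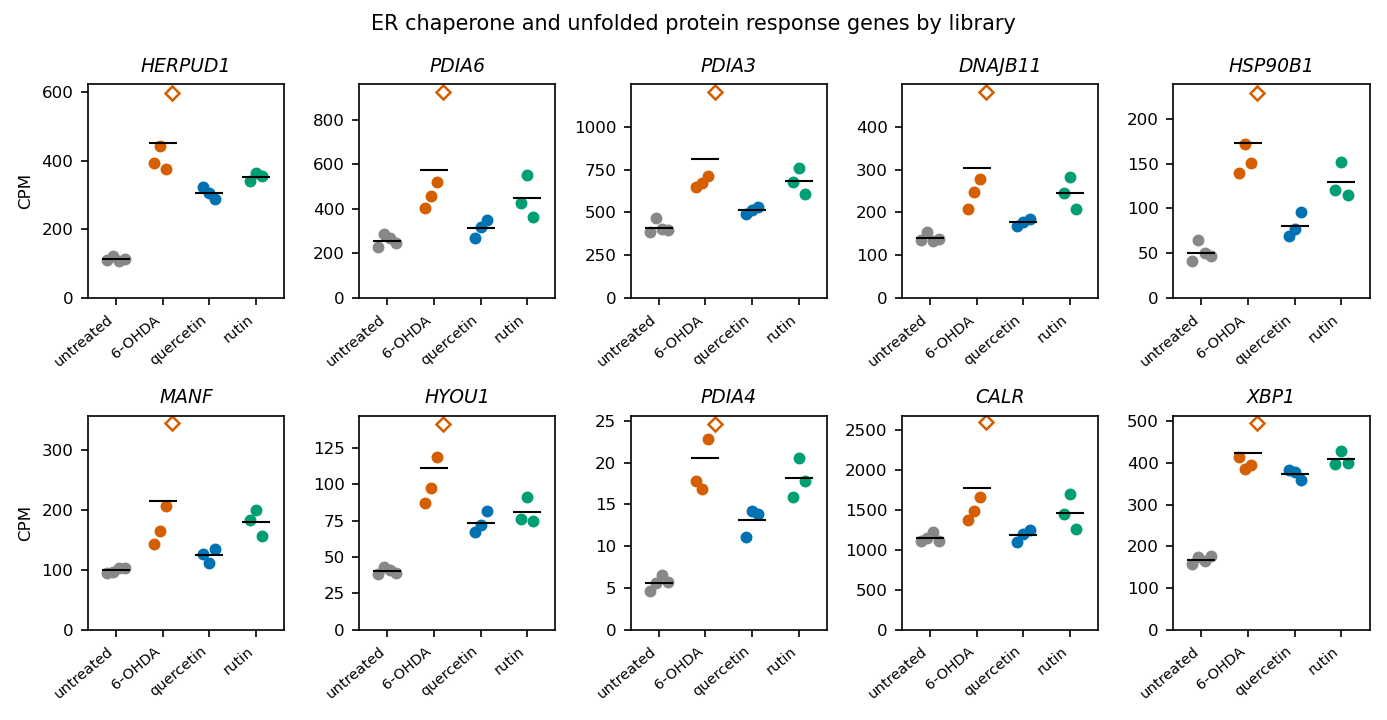
Levels (CPM, linear axis from 0) of the 9 called members of the ER list and of XBP1 in each alpha-synuclein library: untreated, 6-OHDA alone, 6-OHDA with quercetin and 6-OHDA with rutin. Points are libraries, bars are group means, and the open diamond is 6-OHDA replicate 4, the highest library of its group in each panel. The quercetin points of the 9 called genes and of XBP1, which was not called, lie below all 6-OHDA points.

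The 6-OHDA libraries enter both the quercetin comparison and the comparison of 6-OHDA with untreated cells, so their values are given side by side without relating them, and lane and treatment cannot be told apart in the second. HERPUD1 differed by 2.00 between 6-OHDA and untreated cells and by -0.57 between quercetin and 6-OHDA, both as log2 fold changes. For HSP90B1 the values were 1.77 and -1.10, for PDIA6 1.17 and -0.89, for HYOU1 1.47 and -0.60, and for CALR 0.63 and -0.59.

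Aminoacyl-tRNA synthetases, which charge tRNAs with amino acids and include known ATF4 targets, were the list with the next most calls. Of 18 tested members, 5 fell (1.97% of all genes were called lower) and 0 rose, with a median log2 fold change of -0.26; without replicate 4, 3 were called and the median was -0.14. WARS, the tryptophan enzyme, was at 92.9, 88.1 and 98.4 CPM with quercetin and 119, 160, 153 and 284 CPM with 6-OHDA alone. Its groups did not overlap, and it fell by 0.96 on the log2 scale (adjusted p = 0.0131; 0.0155 without replicate 4). EPRS, IARS and AARS fell by 0.58, 0.58 and 0.64 (adjusted p = 0.0153, 0.0250 and 0.0277), and YARS by 0.41 (adjusted p = 0.0454). WARS, IARS and AARS were the 3 that passed without replicate 4 (adjusted p = 0.0486 for IARS and for AARS). EPRS and YARS did not (adjusted p = 0.0582 and 0.109). YARS was chosen for naming after its values were seen. The count was 0 without quercetin replicate 2, 1 without quercetin replicate 3 and 2 without quercetin replicate 1. It was also 0 when the spread came from the 7 libraries alone.

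SLC7A11, the cystine importer that feeds glutathione synthesis and is a target of both NRF2 and ATF4, was lower with quercetin. It stood at 146, 155 and 153 CPM with quercetin, at 234, 271, 228 and 417 CPM with 6-OHDA alone and at 7.14 to 16.1 CPM in untreated cells. The quercetin libraries were close together and below every 6-OHDA library. The log2 fold change was -0.94 ± 0.20 (SE, adjusted p = 0.0218), and -0.69 (adjusted p = 0.0706) without replicate 4. None of the 21 tested members of the ATF4 and integrated stress response list passed (median -0.12); DDIT3, the stress factor CHOP, was at 97.4, 90.2 and 89.7 CPM with quercetin and 105, 110, 113 and 109 CPM with 6-OHDA alone (-0.24, adjusted p = 0.0809). MTHFD2 and SHMT2, mitochondrial enzymes of one-carbon metabolism, had log2 fold changes of -0.53 and -0.39 (adjusted p = 0.0641 and 0.0910).

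Other NRF2 targets were not called. SLC7A11 was the 1 of 19 tested NRF2 targets that passed, where 1.97% of all genes were called lower and 0.56% higher. Of the 19, 16 had a positive fold change (median 0.16). HMOX1, the haem-degrading enzyme, was at 90.0, 73.4 and 51.6 CPM with quercetin and 62.1, 50.97, 53.8 and 14.3 CPM with 6-OHDA alone. These groups overlapped, and the log2 fold change of 0.70 did not pass (adjusted p = 0.258); it was 0.35 without replicate 4, the library at 14.3 CPM. NQO1, the quinone reductase, was at 269, 256 and 294 CPM against 196, 239, 304 and 315 CPM (log2 fold change 0.05, adjusted p = 0.942). TXNRD1, thioredoxin reductase, had a log2 fold change of 0.16 (adjusted p = 0.277) and PRDX1, a peroxiredoxin, 0.42 (adjusted p = 0.189). In the list of glutathione and antioxidant enzymes 1 of 24 members rose, PRDX2, another peroxiredoxin (0.58, adjusted p = 0.0212), and 1 fell, GSS, glutathione synthetase (-0.42, adjusted p = 0.0374); neither passed without replicate 4. The 23 p53 targets held 0 calls, and their members CDKN1A, the cell-cycle inhibitor p21, and GDF15, a stress-induced cytokine, had log2 fold changes of 0.41 and 0.43 (adjusted p = 0.310 and 0.252).

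CEBPB, a basic leucine zipper transcription factor and the gene that the design text sets beside quercetin, did not differ beyond the spread. Its level was 46.0, 53.1 and 38.6 CPM with quercetin, 50.5, 58.5, 54.5 and 45.0 CPM with 6-OHDA alone and 3.03 to 4.13 CPM in untreated cells. The groups overlapped, and the log2 fold change was -0.17 (95% interval -0.46 to 0.12, adjusted p = 0.599). AKR1C3, an aldo-keto reductase that reduces steroid and prostaglandin ketones, was at 0.703, 1.70 and 2.81 CPM against 0.831, 1.08, 1.88 and 1.19 CPM (0.56, adjusted p = 0.574). These levels were low, and 3 reads correspond to 0.17 CPM in the deepest and 1.07 CPM in the shallowest library. AKR1C3 shares much of its sequence with other AKR1C genes, so reads may be split between them. None of the 5 tested C/EBP family members and none of the 9 tested aldo-keto reductases passed. The design text does not say whether CEBPB was expected to change as a transcript.

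Targets of the aryl hydrocarbon receptor were mostly not called. Of 7 tested members, 1 rose (0.56% of all genes were called higher): LRAT, which esterifies retinol. LRAT was at 3.66, 4.44 and 3.86 CPM with quercetin and at 0, 0, 0.235 and 0 CPM with 6-OHDA alone. This amounted to 149 reads in the quercetin libraries and 1 read in the 6-OHDA libraries, a ratio of 125 with a 95% exact interval for counting error of 22.0 to 4957. LRAT passed with all libraries (adjusted p = 0.0325) and with the 7 libraries alone (adjusted p = 0.0158) but not without replicate 4 (adjusted p = 0.167). In the fit of 7 libraries it met the count filter only through the quercetin libraries, where it was high. That call is therefore not independent support. The rutin libraries held 0.122, 5.04 and 0 CPM, so 1 of them was as high as the quercetin libraries. CYP1B1, a xenobiotic-metabolising enzyme and a classical target, was at 0.703 to 1.96 CPM with quercetin and 0.718 to 1.83 CPM with 6-OHDA alone (-0.07, adjusted p = 0.982). TIPARP, a mono-ADP-ribosyltransferase that limits the receptor, was at 25.5, 25.2 and 27.6 CPM against 16.1, 15.8, 16.4 and 11.9 CPM, with no overlap, and did not pass (0.81, adjusted p = 0.0794).

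NGFR, the low-affinity neurotrophin receptor p75 on chr17:49495293-49515017, had the largest rise of the genes named by size. It was at 17.6, 11.1 and 12.6 CPM with quercetin and at 7.15, 1.08, 2.58 and 1.65 CPM with 6-OHDA alone. Every quercetin library was above every 6-OHDA library, as the rule for genes named by size requires. Among the 6-OHDA libraries replicate 1 was the highest. The log2 fold change was 2.12 ± 0.38 (SE, adjusted p = 0.0107), and 1.73 (adjusted p = 0.0486) without replicate 4. It was the 1 member called among 11 neurotrophin and GDNF receptors and ligands; 0.560% of all genes were called higher. Untreated cells held 4.20 to 9.57 CPM and the rutin cells 7.72 to 10.1 CPM.

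CYP26B1, which breaks down retinoic acid, was at 5.91, 8.10 and 6.38 CPM with quercetin and 3.32, 2.51, 2.58 and 2.95 CPM with 6-OHDA alone, without overlap, as that rule requires. It rose by 1.24 on the log2 scale (adjusted p = 0.00874; 0.0196 without replicate 4). This call was lost without quercetin replicate 2. CFAP43, a protein of the ciliary axoneme, was at 13.8, 12.2 and 14.2 CPM against 5.98, 8.61, 4.46 and 3.86 CPM and rose by 1.31 (adjusted p = 0.00992; 0.0346 without replicate 4). The quercetin values of both genes lay above every 6-OHDA and rutin library. MGAM, an intestinal maltase-glucoamylase, was at 7.45, 7.71 and 6.74 CPM against 2.33, 2.15, 1.64 and 2.44 CPM (1.72, adjusted p = 0.0325; 0.101 without replicate 4).

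The GABA and betaine transporter genes SLC6A13 and SLC6A12, which are neighbours on chromosome 12 (6050 bases apart, same strand), both rose. SLC6A13 was at 8.86, 9.61 and 10.4 CPM with quercetin and 3.99, 6.10, 5.87 and 1.99 CPM with 6-OHDA alone (1.24, adjusted p = 0.0241). SLC6A12 was at 5.77, 6.08 and 5.82 CPM against 3.32, 2.87, 2.82 and 1.82 CPM (1.18, adjusted p = 0.0287). Neither gene passed without replicate 4. The remaining genes of the 15 with the largest rises had log2 fold changes of 0.92 to 1.70: ANKMY2, SELPLG, a selectin ligand, ARMT1, RELB, CCR4, a chemokine receptor, NUTM2E, RPP25, a ribonuclease P subunit, LAMA1, a laminin chain, and FGFR3, a fibroblast growth factor receptor. All 15 were under 20 CPM in the 7 libraries, and NUTM2E belongs to a family of near-identical copies, so its reads are uncertain. Of the 15, NGFR, CFAP43 and CYP26B1 passed without replicate 4.

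Calls among signalling genes were few, and 0.560% of all genes were called higher. RELB, the transcription factor of the non-canonical NF-kappaB pathway, was at 9.98, 11.8 and 8.84 CPM with quercetin and 2.82, 6.10, 5.87 and 4.43 CPM with 6-OHDA alone. It rose by 1.14 on the log2 scale (adjusted p = 0.0131; 0.0510 without replicate 4). RELB and NFKBIE, an inhibitor of NF-kappaB (0.66, adjusted p = 0.0325), were the 2 of 13 tested NF-kappaB and inflammatory genes that passed, and 0 passed without replicate 4. Of 17 tested genes of the MAPK feedback list, not all of them inhibitors, SPRY4 and SPRY1, the Sprouty feedback inhibitors, rose (1.15 and 0.60, adjusted p = 0.0394 and 0.0476). The median of the list was 0.60, and 0.45 without replicate 4. The summed list overlapped, at 561, 531 and 528 CPM with quercetin and 539, 545, 531 and 618 CPM with 6-OHDA alone. SPRY4 was at 32.3, 24.8 and 18.6 CPM against 19.1, 14.0, 10.6 and 4.88 CPM, so the lowest quercetin library and the highest 6-OHDA library overlapped. In untreated cells SPRY4 was at 67.1 to 94.4 CPM. Immediate-early and AP-1 genes had 1 call in 20, IER2 (0.64, adjusted p = 0.0431), with 19 of 20 fold changes positive and a median of 0.51, which was 0.19 without replicate 4. No call in the MAPK and immediate-early lists remained without replicate 4.

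BAG3, the co-chaperone of selective autophagy, was the 1 of 17 tested heat shock genes that passed (0.56% of all genes were called higher). It was at 350, 336 and 270 CPM with quercetin and 223, 224, 222 and 119 CPM with 6-OHDA alone, 119 CPM being replicate 4. The groups did not overlap, and BAG3 rose by 0.70 on the log2 scale (adjusted p = 0.0241) and by 0.51 without replicate 4 (adjusted p = 0.0339). The call was lost when quercetin replicate 1, 2 or 3 was left out. DNAJB4, an HSP40 chaperone, had a log2 fold change of 0.51 (adjusted p = 0.0659). The summed heat shock list was at 6419 to 7483 CPM with quercetin, 5894 to 6483 CPM in 6-OHDA replicates 1 to 3 and 4367 CPM in replicate 4.

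**Figure D3:**
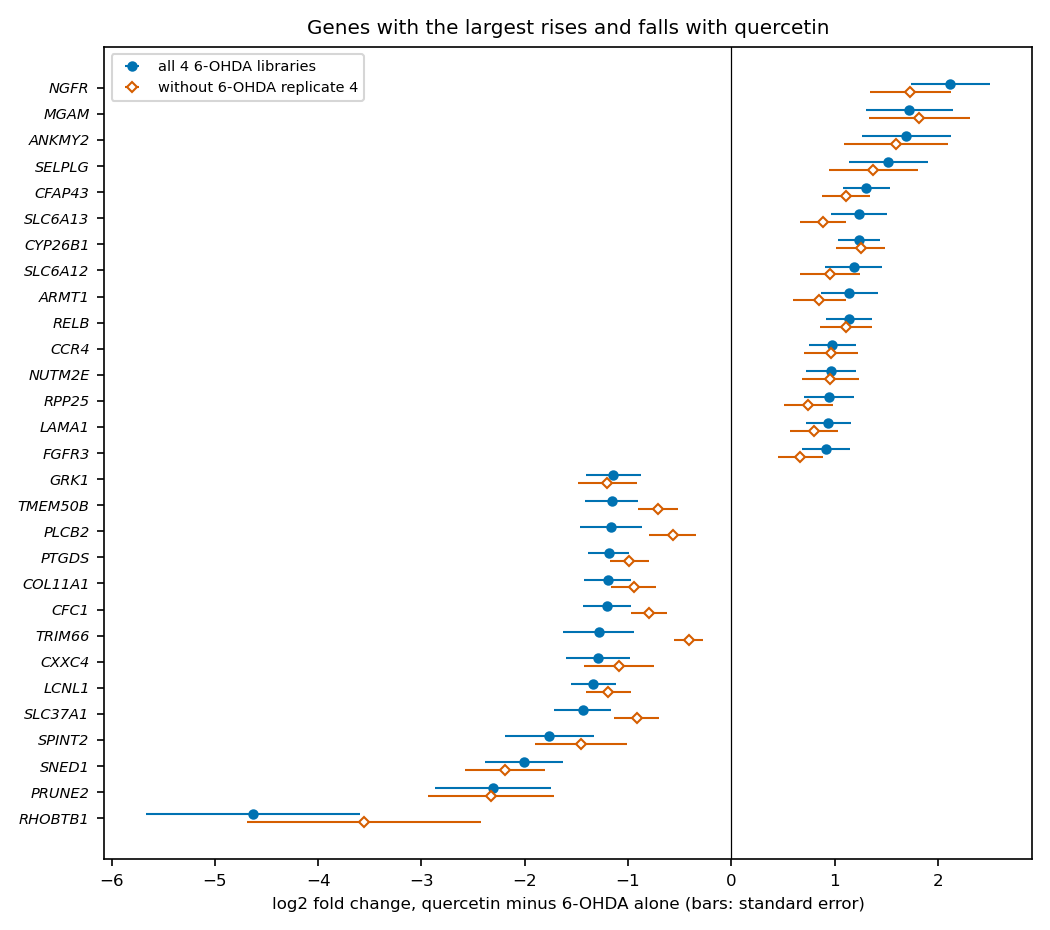
Log2 fold change (quercetin minus 6-OHDA alone) with its standard error for the 15 genes with the largest rise and 14 of the 15 with the largest fall, among genes called, without overlap between the groups and with a mean of at least 5 CPM in either group. Filled circles use all 4 6-OHDA libraries and open diamonds leave out replicate 4. All 29 genes shown keep their sign, which the choice of genes without overlap fixed in advance. TRIM66 moves from -1.29 to -0.41.

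SNCG was lower with quercetin and lies on chr10:86958618-86963260. It encodes gamma-synuclein, a neuronal relative of alpha-synuclein. Its level was 27.1, 31.5 and 28.7 CPM with quercetin (mean 29.1 ± 2.21 SD, n = 3) and 50.8, 61.4, 40.7 and 64.3 CPM with 6-OHDA alone (mean 54.3 ± 10.8 SD, n = 4). The groups did not overlap. SNCG fell by 0.90 ± 0.13 (SE) on the log2 scale (adjusted p = 0.00398), and by 0.79 (adjusted p = 0.0126) without replicate 4. Untreated cells held 107 to 127 CPM. SNCB, the beta-synuclein gene, was at 2.17 to 3.52 CPM against 0.166 to 2.58 CPM (1.37, adjusted p = 0.394).

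ATP2B4, a calcium pump on chr1:203626561-203744081, had the smallest adjusted p of all genes. It was at 207, 191 and 200 CPM with quercetin and 330, 308, 308 and 448 CPM with 6-OHDA alone, without overlap. It fell by 0.81 ± 0.10 (SE) on the log2 scale (adjusted p = 0.00180), and by 0.66 (adjusted p = 0.000145) without replicate 4. The related pump ATP2B2 was at 13.2, 13.1 and 14.1 CPM against 20.6, 28.4, 18.8 and 33.4 CPM (-0.93, adjusted p = 0.0112). BDKRB2, the bradykinin B2 receptor, fell by 0.62 (adjusted p = 0.00258) and CCER2, a coiled-coil protein, by 0.82 (adjusted p = 0.00398). Both passed without replicate 4. TNFRSF19, a receptor of the tumour necrosis factor family, and THBS3, a thrombospondin of the extracellular matrix, fell by 0.74 and 0.82 (adjusted p = 0.00874 for each).

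PTGDS and LCNL1, a lipocalin-like gene, lie 161 bases apart on the same strand of chromosome 9, and both fell. PTGDS (chr9:136975092-136981742) was at 43.0, 45.2 and 39.9 CPM with quercetin and 70.5, 103.01, 82.7 and 130 CPM with 6-OHDA alone. LCNL1 (chr9:136981904-136986410) was at 45.0, 47.7 and 38.2 CPM against 111, 89.4, 96.1 and 138 CPM. Neither gene overlapped between the groups, as the rule for genes named by size requires. Their log2 fold changes were -1.19 and -1.33 (adjusted p = 0.00874 for each), and -0.99 and -1.19 (adjusted p = 0.0218 and 0.0196) without replicate 4. Because the genes adjoin, reads that run from one into the other may be shared.

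SNED1, a secreted matrix protein, was at 7.59, 6.34 and 4.28 CPM with quercetin and 28.7, 40.2, 13.9 and 16.1 CPM with 6-OHDA alone. It fell by 2.01 on the log2 scale (adjusted p = 0.0124), and by 2.19 (adjusted p = 0.0145) without replicate 4. RHOBTB1 had the largest fall (-4.63, adjusted p = 0.0241), at 0.984, 0.261 and 0.210 CPM against 1.16, 11.5, 3.99 and 20.8 CPM. Its 6-OHDA libraries spread widely, as did the untreated ones at 0.572 to 35.1 CPM, and it did not pass without replicate 4 (adjusted p = 0.167). Other genes of the 15 with the largest falls had log2 fold changes from -2.31 to -1.14: PRUNE2, SPINT2, a serine protease inhibitor, SLC37A1, CXXC4, a Wnt inhibitor, TRIM66, CFC1, a Nodal co-receptor, COL11A1, a fibrillar collagen chain, PLCB2, a phospholipase C, TMEM50B and GRK1, a rhodopsin kinase. CFC1 has a near-identical copy, so its reads are uncertain. TRIM66 was at 37.3, 38.2 and 38.6 CPM with quercetin. It was at 44.2, 67.1 and 42.8 CPM in 6-OHDA replicates 1 to 3 and 205 CPM in replicate 4. Its call was lost without 6-OHDA replicate 4, and also without quercetin replicate 1, 2 or 3. Of these 15, SNED1, LCNL1, CFC1 and PTGDS passed without replicate 4. SNED1 was lost without quercetin replicate 2 or 3, and CFC1 without quercetin replicate 2.

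**Figure D4:**
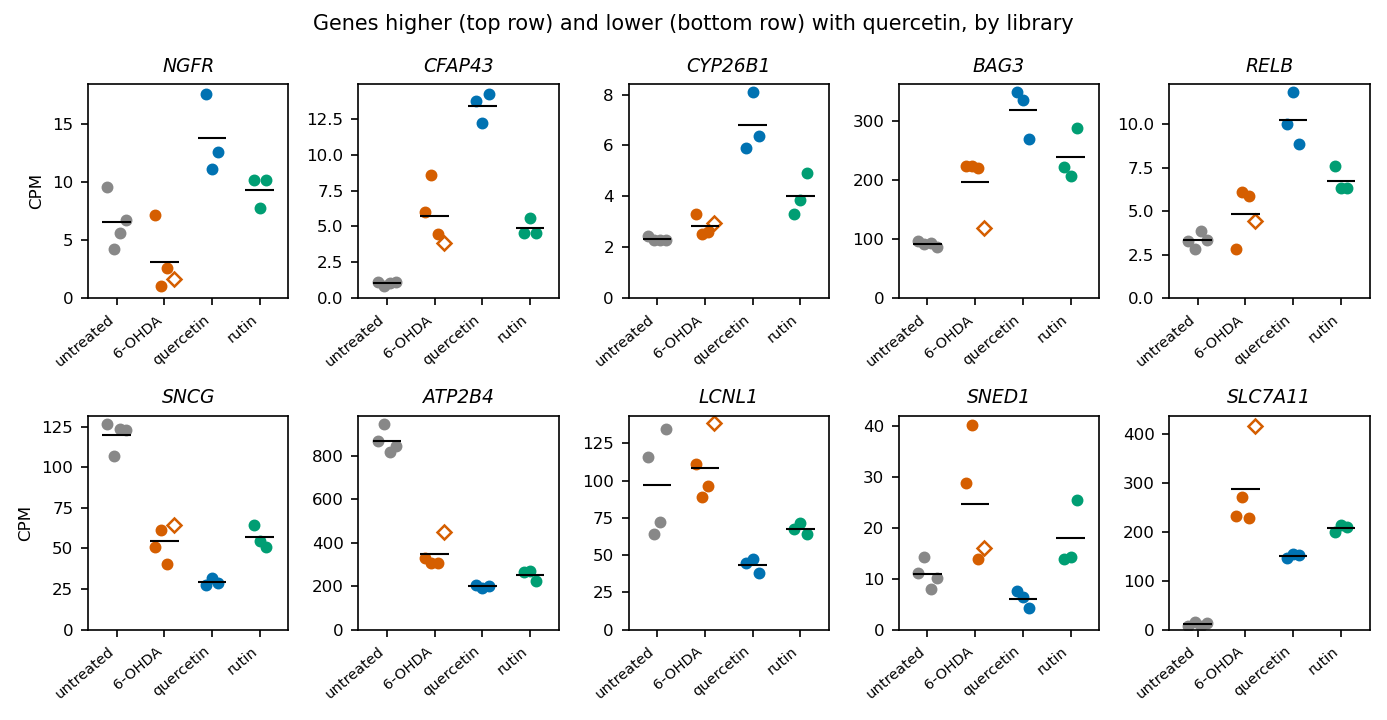
Levels (CPM, linear axis from 0) of 5 genes higher (NGFR, CFAP43, CYP26B1, BAG3 and RELB) and 5 genes lower (SNCG, ATP2B4, LCNL1, SNED1 and SLC7A11) with quercetin, in each alpha-synuclein library. Points are libraries, bars are group means, and the open diamond is 6-OHDA replicate 4. In all 10 panels the quercetin points lie on one side of every 6-OHDA point. The rule for genes named by size requires this of NGFR, CFAP43, CYP26B1, RELB, LCNL1 and SNED1.

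Neuronal genes showed scattered calls; over all genes 1.97% were called lower and 0.560% higher. Of 23 tested genes of the synaptic vesicle and release machinery, 3 fell: DNM1, SYT5, a synaptotagmin, and SYP, synaptophysin. DNM1 was at 169, 179 and 166 CPM with quercetin and 233, 232, 230 and 329 CPM with 6-OHDA alone, and it fell by 0.59 on the log2 scale (adjusted p = 0.0124; 0.0207 without replicate 4). SYT5 and SYP fell by 0.44 and 0.37 (adjusted p = 0.0311 and 0.0361) and did not pass without replicate 4. Of 24 voltage-gated channels, KCNA2, a potassium channel, SCN3B, a sodium channel subunit, and CACNA1A, the P/Q-type calcium channel, fell by 0.63, 0.51 and 0.27 (adjusted p = 0.0131, 0.0169 and 0.0329). KCNA2 passed without replicate 4 (adjusted p = 0.0490), and SCN3B and CACNA1A did not (adjusted p = 0.0524 and 0.0879). Without quercetin replicate 1, 2 or 3 the vesicle list held 1 fall in each fit and the channel list 2, 0 and 1; without 6-OHDA replicate 1 each list held 6 and without 6-OHDA replicate 3 each held 5. The medians of the vesicle and channel lists were -0.15 and -0.13.

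Axon guidance genes moved both ways, with 1 rise and 3 falls among 33 tested (0.560% of all genes were called higher and 1.97% lower). The falls numbered 0 without quercetin replicate 2 or 3 and with the replicate number as a block, and 1 without quercetin replicate 1 or 6-OHDA replicate 4. The rise was lost without quercetin replicate 2 or 3 or 6-OHDA replicate 4. EPHB2, an ephrin receptor, was at 284, 307 and 309 CPM with quercetin and 192, 200, 239 and 201 CPM with 6-OHDA alone, and it rose by 0.53 (adjusted p = 0.0170). UNC5B, a netrin receptor, was at 71.3, 80.0 and 59.4 CPM against 88.9, 118, 101.98 and 200 CPM and fell by 0.87 (adjusted p = 0.0241). EPHA5 and ROBO2, an ephrin and a Slit receptor, fell by 0.80 and 0.59 (adjusted p = 0.0237 and 0.0361), and ROBO2 alone of the 4 passed without replicate 4. NEFH, the heavy neurofilament chain, rose: it was at 548, 581 and 548 CPM against 387, 372, 477 and 395 CPM (0.46, adjusted p = 0.0172; 0.0486 without replicate 4). It was the 1 call among 22 neurofilament and microtubule genes, and it was lost without quercetin replicate 1, 2 or 3.

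Dopaminergic genes were not called. TH, which catalyses the first step of dopamine synthesis, was at 78.9, 58.9 and 55.7 CPM with quercetin, 83.9, 71.8, 46.8 and 66.6 CPM with 6-OHDA alone and 321 to 419 CPM in untreated cells. The quercetin and 6-OHDA libraries overlapped (log2 fold change -0.07, 95% interval -0.40 to 0.26, adjusted p = 0.890). NR4A2, the transcription factor NURR1 of dopaminergic neurons, was at 15.3, 18.1 and 16.8 CPM against 14.8, 21.5, 18.3 and 12.6 CPM (0.04, adjusted p = 0.957). None of 13 genes of dopamine synthesis, storage and breakdown and none of 7 midbrain transcription factors passed. Within the first list QDPR, which recycles the cofactor of TH, had a log2 fold change of 0.69 (adjusted p = 0.191). Of 12 tested familial Parkinson disease genes, VPS13C, a lipid transfer protein, fell by 0.53 (adjusted p = 0.0438) and did not pass without replicate 4. Over all genes, 1.97% were called lower.

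Cell death genes of the BCL2 family had 2 falls among 13 tested, where 1.97% of all genes were called lower. HRK, a pro-apoptotic BH3-only member, was at 37.7, 36.7 and 38.03 CPM with quercetin and 46.2, 56.7, 51.5 and 84.9 CPM with 6-OHDA alone. It fell by 0.70 (adjusted p = 0.0176; 0.0494 without replicate 4). HRK did not pass without quercetin replicate 2 or 3. BCL2L2, an anti-apoptotic member, fell by 0.52 (adjusted p = 0.0261; 0.113 without replicate 4).

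Single calls were made in further lists, where 1.97% of all genes were called lower; nothing is read from a single call about its list. STAT2, a mediator of interferon signalling, was at 67.8, 71.4 and 64.2 CPM with quercetin and 92.9, 95.5, 90.9 and 92.1 CPM with 6-OHDA alone, and it fell by 0.45 (adjusted p = 0.0153; 0.0382 without replicate 4); it was 1 of 17 tested interferon and MHC class I genes. CTSL, the lysosomal protease cathepsin L, was the 1 of 28 autophagy and lysosome genes (-0.82, adjusted p = 0.0273). DLL3, a Notch ligand, was the 1 of 13 Notch and Wnt genes (-0.68, adjusted p = 0.0461). CTSL and DLL3 did not pass without replicate 4, and STAT2 did not pass without quercetin replicate 2 or 3.

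Of the 46 lists, 25 held no call. They included 31 proteasome subunits (median log2 fold change -0.04), 37 cytosolic ribosomal proteins (0.14), 13 mitochondrially encoded mRNAs (0.15), 20 cholesterol synthesis genes (-0.14), 30 glycolysis and hypoxia-inducible genes (0.07), 17 genes of haem and iron handling (0.07) and 16 metallothioneins and zinc transporters (-0.03). Neuronal markers (12 tested, median -0.04) and cycling cell markers (16 tested, median 0.32) were not called either. The summed cycling markers were at 114.5 to 180 CPM with quercetin and 100.1 to 150 CPM with 6-OHDA alone. Markers of microglia and leukocytes summed to 12.7 to 17.5 CPM against 7.20 to 14.0 CPM, with AIF1, CX3CR1, TREM2, P2RY12 and TYROBP too low to be tested, and their part in the results was not tested. In bulk RNA, fewer cells of a type and less RNA per cell cannot be told apart. Over all lists, 11 distinct genes were called higher and 33 lower of 728 tested, beside 0.560% and 1.97% of all genes.

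**Figure D5:**
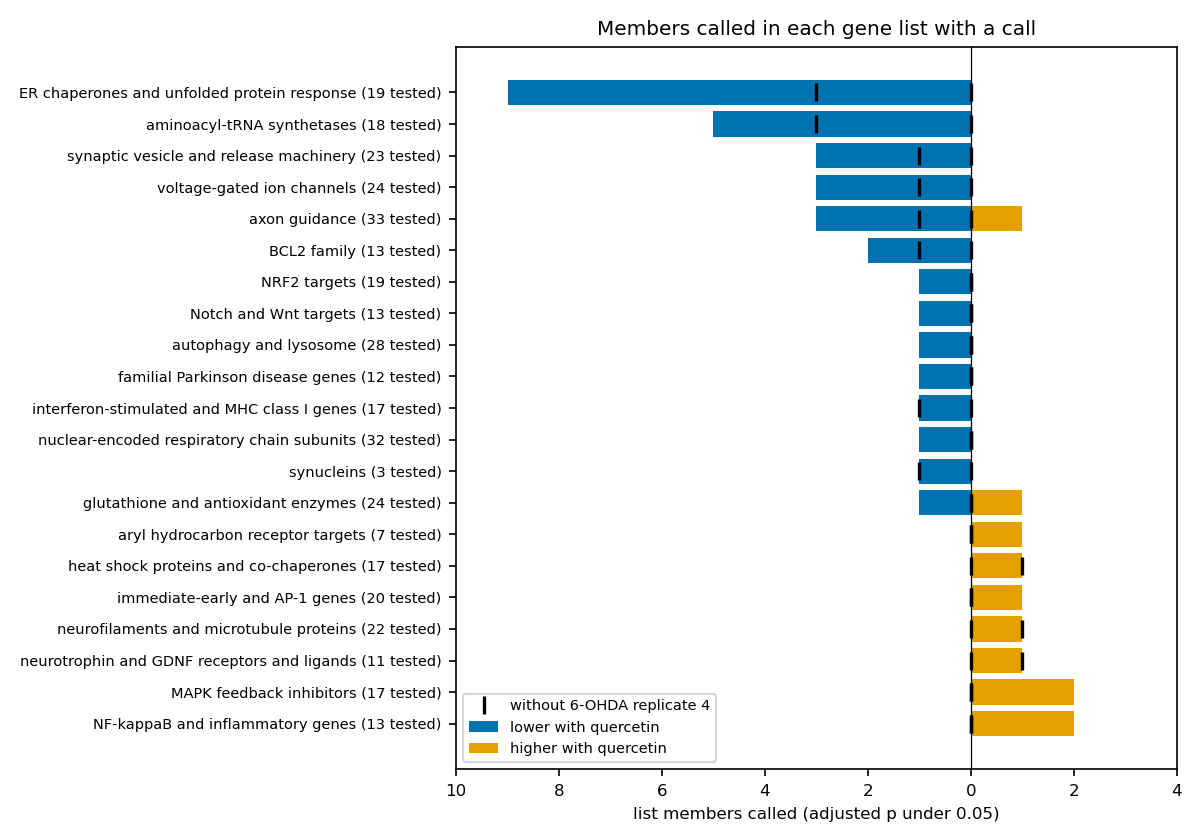
Members called higher (bars to the right) and lower (bars to the left) with quercetin in each of the 21 gene lists that held a call, with the number tested in brackets. Black ticks give the counts without 6-OHDA replicate 4, for example 3 in place of 9 for the ER list and 3 in place of 5 for the aminoacyl-tRNA synthetases.

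Quercetin and rutin, which differ by the rutinose sugar, were compared directly in the same alpha-synuclein cells under 6-OHDA; the labels do not state their doses, so it is not known whether they were matched. This was 1 pair of compounds. Of 16601 genes, 1 (0.00602%) differed at an adjusted p under 0.05, SNCG, and 1481 (8.92%) had an unadjusted p under 0.05. SNCG was at 64.6, 54.8 and 51.1 CPM with rutin, all above the quercetin libraries, and the quercetin minus rutin log2 difference was -0.97 (95% interval -1.26 to -0.68, adjusted p = 0.0101). This call was lost without quercetin replicate 1, quercetin replicate 3 or rutin replicate 1. No other gene passed in this fit, but the number of calls depended on the method: DESeq2 called 77 genes higher and 39 lower, voom with quality weights called 799 genes, and edgeR fitted to the 2 groups alone called 19. CFAP43 had a difference of 1.44 (adjusted p = 0.0687), CCER2 -0.72 (adjusted p = 0.0687), SLC6A12 1.56 (adjusted p = 0.0905) and SLC6A13 1.40 (adjusted p = 0.0914).

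For the ER list the rutin cells lay between the quercetin and the 6-OHDA cells in several genes, and the difference between the compounds was not called for any of the 19 members. The summed list was at 4428, 5127 and 3992 CPM with rutin, above the 3506 to 3718 CPM of the quercetin libraries. HSP90B1 was at 121, 152 and 114.8 CPM with rutin (quercetin minus rutin -0.68, 95% interval -1.23 to -0.13, adjusted p = 0.427). HERPUD1 was at 341, 363 and 355 CPM with rutin (-0.21, 95% interval -0.46 to 0.05, adjusted p = 0.651). CEBPB and AKR1C3 differed by -0.10 and -0.05 between the compounds (adjusted p = 0.911 and 0.996; 95% intervals -0.41 to 0.21 and -0.97 to 0.88). A p that misses the threshold does not show that the compounds act alike.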

How the data were processed

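Polyadenylated RNA of 22 LUHMES samples was sequenced. Per the submitters' processing notes, Trimmomatic 0.38 and kallisto 0.46.2 with GRCh38 were used. The sources used here do not give how transcripts were summed to genes or the strand setting. The authors deposited 1 table of estimated counts per gene (34679 rows, whole numbers), which were rounded before testing; 0.174% of counts lay in rows that were not tested because of low counts. Library totals of the groups described here ran from 2520764 to 20667106 counts, so low genes are less certain in the small libraries.

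Groups came from sample titles. Genes were filtered with filterByExpr (minimum count 10) and tested with edgeR 4.0.16 (quasi-likelihood, R 4.3.3) with a mean for each of 6 groups fitted to all 22 libraries, with Benjamini-Hochberg adjustment over all genes tested and a threshold of 0.05. CPM used the same scaling. The main contrast was quercetin with 6-OHDA minus 6-OHDA alone; the other was quercetin minus rutin. Intervals of log2 differences used the t distribution with 21.74 degrees of freedom. Alternatives were RLE size factors, DESeq2 1.42.0, limma 3.58.1 voom with quality weights, no filter, lane 2 or the compared groups alone, a replicate block, thinning and leaving out each library. The fit was tested on simulated counts. Positions are from GENCODE 29, matched by gene ID for 99.9% of rows, and promoter sequences from RefSeq GRCh38.p14. RefSeq entries matched 77.1% of called genes, below 80%, so comparing motif shares of called genes is void. Only the ER stress response element, added after the data were seen, is given, for the ER list. The motifs planned before are not reported.

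Genes named are 14 fixed ones (of which CYP1A1 and MT2A were not tested), the 15 genes that rose most and the 15 that fell most (called, no overlap, mean of at least 5 CPM in either group), and the 4 smallest adjusted p-values in each of 46 lists; others are said to be chosen later. A few genes, also among those the rule names, are not reported here by name; counts over all genes and over lists include them. The experiment, members and lists were chosen with earlier results of these data known.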

Additional observations from a re-analysis of the deposited data

Results flagged for a closer look

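In the 4 libraries of 6-OHDA alone, 1 library stood far from the other 3 for 27 of 153 values examined (100 genes, 46 list sums and 7 library measures), where chance flags about 1 in 20; it was replicate 4 in 23 of the 27, and genes were named in part because they differed between groups, so these values are not independent of that choice.

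Replicate 4 was the high library for PDIA3 (1207 CPM), IARS (887.5), TRIM66 (204.6), CFC1 (76.52), COL11A1 (38.94), TMEM50B (59.04), EPHA5 (92.92), ROBO2 (1172), KCNA2 (102.2), DNM1 (328.8), VPS13C (321.4), ATP2B4 (447.6), CCER2 (87.53) and THBS3 (441.9). It was the low library for CDKN1A (113.5 CPM), BAG3 (118.6) and TIPARP (11.92). Replicate 3 was the single library with a read of LRAT (0.235 CPM), and replicate 2 was the low library for PTDSS1 (68.55 CPM).

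Among list sums, replicate 4 was high for aminoacyl-tRNA synthetases (4200 CPM), axon guidance genes (5477), neurotrophin and GDNF receptors and ligands (1797), splicing factors (9658) and the MAPK feedback list (617.8), and low for the BCL2 family (617.3). Replicate 3 was high for glycolysis and hypoxia-inducible genes (6409) and low for mitochondrially encoded mRNAs (7531).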

How the results depend on the processing

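The 420 calls of quercetin against 6-OHDA alone became 969 with DESeq2, 4 with lane 2 libraries only, 2 with the libraries of the 2 groups only, 6 with lane 2 libraries thinned to the smallest total, and 51 when a 2-fold change was also asked for; RLE size factors gave 465, voom with quality weights 372 and no filter 378. Leaving out 1 library gave 26 (without quercetin replicate 2) to 896 calls (without 6-OHDA replicate 1); quercetin replicates 1 and 3 and 6-OHDA replicates 3 and 4 also moved the count by over 1.5 times, as given in the report. Quality weighting gave 6-OHDA replicate 4 a weight of 0.145, the lowest of all libraries. The cause of these differences was not tested, except that fits of fewer libraries have fewer degrees of freedom.

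The share of genes called between quercetin and rutin, 0.00602% with 1 call, became 0.699% with DESeq2 (77 higher and 39 lower), 4.81% with voom (799 calls), 0.0268% with no filter (8 calls) and 0.12% with the 2 groups only (19 calls). It became 0 with lane 2 libraries only, with thinning and with a 2-fold change, and ranged from 0 to 0.00592% when 1 library was left out. SNCG, the 1 call, was also called in the DESeq2, voom, unfiltered and 2-group fits.

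With the replicate number as a block, the calls against 6-OHDA alone fell to 120, of which 117 were shared, and those against rutin stayed at 1. The numbers did not pair the samples: deviations of same-numbered libraries correlated at 0.00, 0.01 and -0.01. Under the block 1 ER list member and 2 aminoacyl-tRNA synthetases were called.

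Of the 100 genes followed through the alternatives, none changed direction among called values. With the 7 libraries only, 76 no longer passed; without 6-OHDA replicate 4 it was 49, and without quercetin replicate 2 it was 65. Depth limits low genes most: 3 reads correspond to 0.17 CPM in the deepest and 1.07 CPM in the shallowest of the 7 libraries.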
